A study of Cricetulus griseus with 4 samples.

Results

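The data described here are the 2 arrays, of 4 in the series, that set the stable clone RT210B against unstable mixture 2. They were found by their sample titles, and no array of the other mixture entered any value. RNA of RT210B was in channel 1 of each array, and channel 2 held RNA from a pool of equal parts of Fe10-3 and 10-56-11, a pair of unstable clones. The study asked whether gene expression differs between chromosomally stable and unstable clones that share a genetic background. As background that the labels do not give, clones of this naming are known from work on radiation-induced instability in Chinese hamster cells that carry a human chromosome. The labels give no dose, culture or passage for these clones. Each line is a single clone or a pool of clones, so what is described holds for these clones and not for stable or unstable cells in general, and a pool hides how far its members differ.

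Chromosomally unstable clones go on forming new rearrangements and losing or gaining chromosomes over many divisions, while a stable sister clone keeps its karyotype. Break repair, the cell cycle checkpoints, chromosome segregation, telomere upkeep and chromatin packing are the processes best known for guarding the karyotype. The array carried some genes of each.

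Each value is a log2 ratio between the channels. The labels do not settle which pool is the numerator, because the title of each array puts RT210B first, its description puts the mixture first, and the dyes are not given. Values are therefore given as deposited, on the positive or the negative side, and neither side is read as higher expression in RT210B or in the mixture. Each of 1152 probes was printed as 2 spots, whose values were averaged. Each array was then centred on its own median probe, which removed -0.44 from replicate 1 and -0.53 from replicate 2. Probes with 1 gene symbol numbered 350 and stood for 347 genes, 8 probes had several symbols and 794 are unnamed here. The symbols are those of human genes, apart from the mouse-style Phc1, and 306 of the 347 genes had a gene of the same name or synonym in RefSeq's Chinese hamster annotation. Of the genes described below, the passing FOXD1, XIST, TERC and ZNF135 did not, nor did ADD3, ATM, CASP10, CDH6, COL6A3, CYP11B1, CYP51A1, HOXB9, ID4, MAP2K6, NID1, NSMCE3, SMARCA2 and ZNF347. Of 28 marker genes of fibroblast, epithelial, endothelial, blood and neural cells only CDH5 and S100B had a named probe. A ratio gives no expression level, so the cell type could not be checked. No spot intensity was used, so the brightness behind a ratio is unknown, and the number of arrays limits the precision.

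Ratios were wider on replicate 1 than on replicate 2, with an SD over probes of 0.80 against 0.47. The lowest probe lay at -2.73 on replicate 1 and at -1.90 on replicate 2, and the highest at 1.57 and 0.87. Both arrays thus reached further below their middle probe than above it. On replicate 1, 156 probes were at least 2-fold on the negative side and 66 on the positive side. On replicate 2 these counts were 43 and 0. Across the 350 named probes the arrays correlated at r = 0.606 (rho 0.633), as a description over probes that share an array and a pair of RNA pools, and 256 of the 350 lay on the same side on both arrays.

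**Figure D1:**
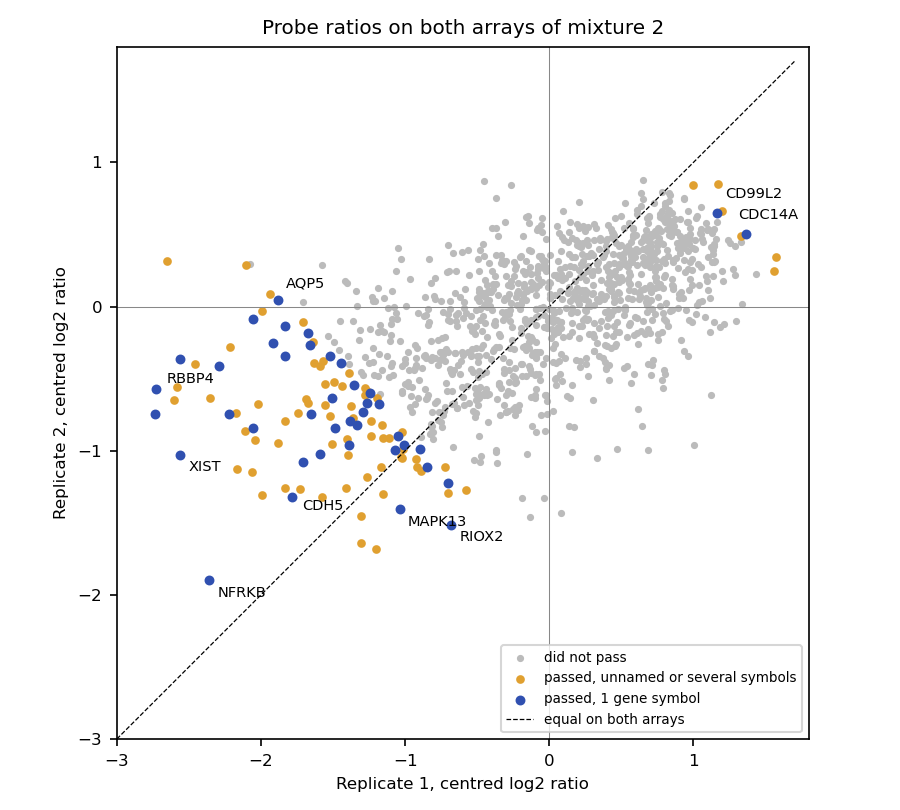
Centred log2 ratio of each of the 1152 probes on replicate 1 (x axis) and replicate 2 (y axis), where blue points are named probes and orange points other probes that passed, and grey points did not pass. The negative arm runs wide of the line of equal values, because most passing probes lay lower on replicate 1, and NFRKB is the lowest named probe on replicate 2 and in the mean, while FOXD1 is the lowest on replicate 1.

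The mean ratio of both arrays was tested against 0 with limma, and a probe passed at a Benjamini-Hochberg adjusted p under 0.05 over all 1152 probes. Of the 350 named probes 39 passed on the negative side and 2 on the positive side. Over all probes the share that passed was 9.81%, with 9.11% on the negative and 0.694% on the positive side, so named probes passed at 11.7%, near that background. The fit left 1 residual degree of freedom. In this setting limma pooled the spread entirely and gave every probe the same SE of 0.320. Passing is therefore a matter of size, reached by means of at least 0.904 (log2), and says nothing of how well a gene's own arrays agree. Without limma's pooling, an ordinary test on each probe's own spread had 1 degree of freedom, and no probe passed (90 at an unadjusted p under 0.05). With so little freedom that count says little. In limma 12 probes passed, all negative, when both arrays were scaled to 1 spread. By exact permutation of signs, 2 arrays cannot give a two-sided p below 0.5 for a single gene.

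A stricter count asks for at least 2-fold on each array separately. It was met by 6 named probes, NFRKB, XIST, CDH5, DLG5, PHC2 and MAPK13, all on the negative side. Over all probes 22 met it on the negative side (1.91%) and 0 on the positive side (0%). Of the 350 named probes the 6 are 1.71%, close to that background.

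NFRKB, a subunit of the INO80 chromatin remodelling complex, had the lowest mean of all 1152 probes. It lay at -2.36 on replicate 1 and -1.90 on replicate 2, a mean of -2.13 (SD 0.325, n = 2) or 4.37-fold from the middle probe. Its spots read -2.86 and -1.85 on replicate 1 and -2.04 and -1.76 on replicate 2, so each spot was more than 3-fold from the middle. The limma adjusted p was 5.46e-08. XIST, the noncoding RNA that coats the inactive X chromosome, had spots at -2.73 and -2.38 on replicate 1 and at -0.86 and -1.20 on replicate 2. Its mean was -1.79 (SD 1.08, n = 2), with an adjusted p of 1.58e-05 in limma. Its spots agreed within each array while the arrays lay apart.

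A pattern of low values on replicate 1 and smaller ones on replicate 2 recurred in the genes that follow. FOXD1, a forkhead factor of the kidney stroma, lay at -2.73 and -0.74, and its spots on replicate 2 read -1.30 and -0.18. RBBP4, a histone-binding protein of deacetylase and Polycomb complexes, lay at -2.73 and -0.57. KISS1, which encodes the kisspeptin precursor, lay at -2.22 and -0.74. EIPR1, a protein of endosomal recycling, lay at -2.56 and -0.36. TEAD2, a transcription factor at the end of the Hippo pathway, lay at -2.29 and -0.41. NME4, a mitochondrial nucleoside diphosphate kinase, lay at -2.05 and -0.84. The spots of KISS1, RBBP4, EIPR1 and TEAD2 on replicate 1 differed by 0.116 to 0.278, so duplicate spots did not set these low values apart within that array. Their means ran from -1.35 for TEAD2 to -1.65 for RBBP4, and limma adjusted p-values from 6.16e-05 to 0.00113. On replicate 2 alone none of these 6 genes was 2-fold from the middle.

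Another set was at least 2-fold from the middle on the negative side of both arrays. CDH5, the endothelial cadherin, lay at -1.79 and -1.32, although its spots on replicate 1 read -2.56 and -1.01. DLG5, a membrane scaffold of the discs large family, lay at -1.71 and -1.08 with spots within 0.337 of each other on both arrays. PHC2, a core protein of Polycomb repressive complex 1, lay at -1.59 and -1.02. MAPK13, the delta form of p38 kinase, lay at -1.04 and -1.41, lower on replicate 2. Their limma adjusted p-values ran from 0.000161 for CDH5 to 0.00445 for MAPK13. With the arrays scaled to 1 spread NFRKB (-2.14), XIST (-1.66), CDH5 (-1.54) and DLG5 (-1.36) were the 4 named probes that still passed, with limma adjusted p-values of 0.0419 to 0.0484.

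GTF3C1, the largest subunit of the RNA polymerase III factor TFIIIC, lay at -1.65 and -0.75. CD86, a costimulatory ligand of antigen-presenting cells, lay at -1.39 and -0.96, and its spots on replicate 1 were far apart at -2.10 and -0.68. PRKCH, the eta form of protein kinase C, lay at -1.49 and -0.84. CAPN1, the catalytic subunit of calpain 1, lay at -1.38 and -0.79. HSPG2, the basement membrane proteoglycan perlecan, lay at -1.83 and -0.34. RIOX2, a ribosomal oxygenase, lay at -0.68 and -1.51, but a spot on replicate 1 read 0.12, above the middle, while its partner read -1.48. Means of these 6 genes ran from -1.20 for GTF3C1 to -1.09 for HSPG2, with limma adjusted p-values of 0.00558 to 0.0161.

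**Figure D2:**
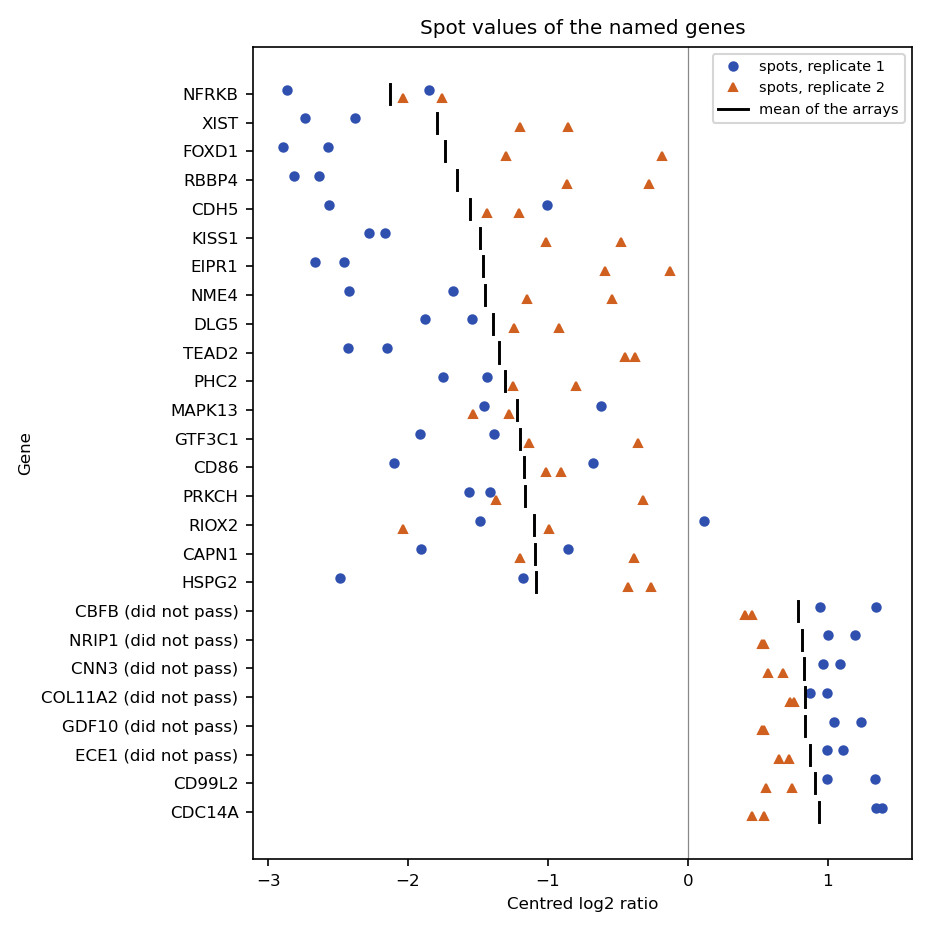
Centred log2 ratio (x axis) of every spot of the 18 most negative and 8 most positive named genes with 1 sign on both arrays, with circles for replicate 1, triangles for replicate 2 and a bar for the mean. XIST, RBBP4, EIPR1 and TEAD2 have tight pairs of circles far from their triangles, while NFRKB and MAPK13 have overlapping spots of both arrays and all spots of the 8 positive genes lie above 0.

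On the positive side 2 named genes passed. CDC14A, a phosphatase that reverses phosphorylation by cyclin-dependent kinases, lay at 1.37 on replicate 1 and 0.50 on replicate 2, a mean of 0.93 (SD 0.610, n = 2; limma adjusted p 0.0450). CD99L2, a membrane glycoprotein of leukocyte passage, lay at 1.16 and 0.65, a mean of 0.91 (SD 0.363, n = 2; limma adjusted p 0.0487). Duplicate spots of these genes differed by at most 0.339.

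The next 6 positive genes did not pass in limma (adjusted p 0.0623 to 0.0939), and each lay on the positive side on both arrays. ECE1, the protease that makes mature endothelin, lay at 1.05 and 0.69. GDF10, a ligand of the bone morphogenetic protein family, lay at 1.14 and 0.54. COL11A2, a chain of cartilage collagen, lay at 0.93 and 0.74. CNN3, an actin-binding calponin, lay at 1.03 and 0.63. NRIP1, a nuclear receptor corepressor, lay at 1.10 and 0.54. CBFB, the shared subunit of core binding factor, lay at 1.14 and 0.43. These genes form a narrow band of means from 0.79 to 0.87, and none reached 2-fold on replicate 2.

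The threshold fell in a continuous run of values. Just inside it on the negative side were AQP5 (mean -0.92), UBE2R2 and MEF2C (both -0.92), and just outside were NFX1 (-0.89), HYAL3 (-0.88) and CTSF (-0.87). On the positive side CD99L2 (0.91) was inside and ECE1 (0.87) outside. AQP5, a water channel, shows what such a mean can hold: it lay at -1.88 on replicate 1 and 0.05 on replicate 2, and was the only named gene to pass with opposite signs.

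Agreement between arrays varied among the 39 named genes that passed on the negative side. Of these, 34 lay lower on replicate 1 and 5 on replicate 2, with a median gap of 0.811 between arrays, against 0.454 over all 350 named probes. The 39 were selected by their large means and replicate 1 was the wider array, so this comparison favours a larger gap and lower values on replicate 1. The arrays lay within 0.25 of each other for 4 genes, RAD50, ATXN1, CDK18 and E2F5. In ATXN1, the polyglutamine gene of a spinocerebellar ataxia, all spots lay between -1.08 and -0.90. In the kinase gene CDK18 the array means of -0.90 and -0.99 agreed, while its spots on replicate 1 read -1.56 and -0.24. In contrast 11 of the 39 were within 0.5 of the middle on replicate 2, among them HOXB13 (-2.05 and -0.09), CDH3 (-1.83 and -0.14) and PLEKHO1 (-1.68 and -0.18).

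Probes with low ratios also had less alike duplicate spots. The median difference between the spots of a probe was 0.556 on replicate 1 and 0.260 on replicate 2 for the 39 negative named probes that passed, against 0.314 and 0.122 for all 350. For the 2 positive ones it was 0.193 and 0.135. Over all 1152 probes the ratio and the spot difference correlated at rho = -0.385 on replicate 1 and -0.493 on replicate 2, as a description over probes. With the trend on that difference removed from each array, NFRKB lay at -1.81, XIST at -1.68, RBBP4 at -1.60, TEAD2 at -1.52 and CDH5 at -1.18. No probe then passed in limma (smallest adjusted p 0.485, with 108 probes at an unadjusted p under 0.05), but the spread was also pooled less than in the main fit. RIOX2 moved from -1.10 to -0.51, CAPN1 from -1.09 to -0.64 and MTDH from -0.93 to -0.44.

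**Figure D3:**
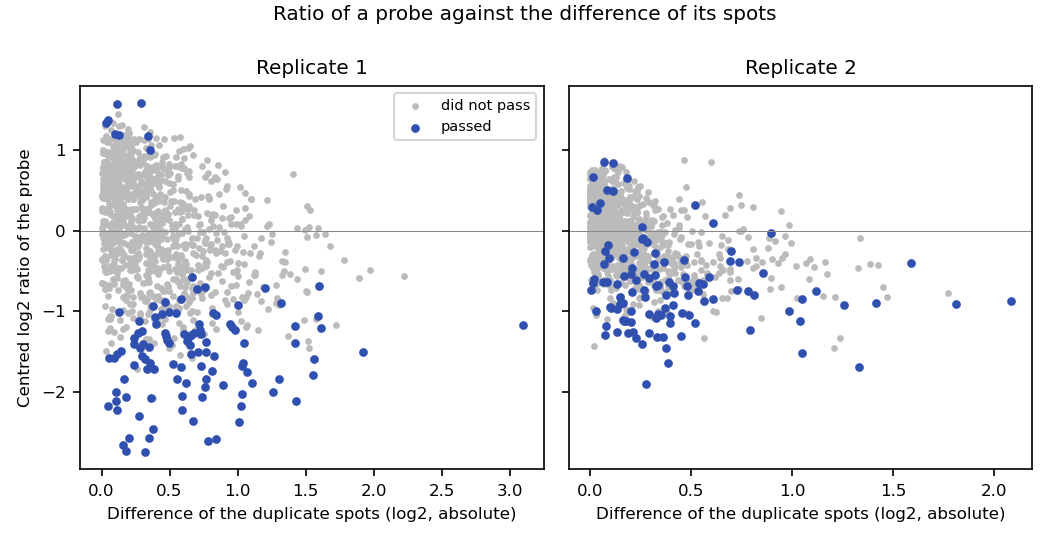
Centred log2 ratio of a probe (y axis) against the absolute log2 difference between its duplicate spots (x axis) for replicate 1 and replicate 2, with passing probes in blue. Probes with well matched spots span both sides of 0, those with unlike spots lie mostly below it, and the 8 positive passing probes have a median spot difference of 0.121 and 0.0770.

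Genes were grouped into 18 lists by role, and 157 named probes belonged to at least 1 list. Of these 157, 19 passed, and 22 of the 193 named probes in no list passed. The median over all named probes was -0.05, which is the value to read each list median against, and each count stands against the 9.81% of all probes that passed. Without centring every mean is lower by about the array medians given above, and the medians of the transcription machinery, cell cycle, MAP kinase, nuclear receptor, cytokine and chaperone lists then turn negative.

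Among chromatin genes 3 of 10 passed, all on the negative side, where 9.11% of all probes passed, and the list median was -0.29. With a list this short the count is a description and sets the list apart from no other. NFRKB, RBBP4 and PHC2, given above, were the 3. MLLT3, a reader of acylated histones, lay at -0.79 and -0.36, and the acetyltransferase gene KAT6A at -0.64 and -0.06. INO80, the ATPase of the complex to which NFRKB belongs, lay near the middle at -0.14 and -0.29. Phc1, annotated with a mouse-style symbol and a close relative of PHC2, lay at -0.16 and -0.30. PRDM2, SMARCA2 and SIRT2 had opposite signs on the arrays. The remodeller subunit and its ATPase, and the paired Polycomb proteins, thus had unlike ratios.

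In the DNA repair list 1 of 10 passed. RAD50, the long coiled-coil protein of the complex that first binds broken DNA ends, lay at -1.07 and -0.99, a mean of -1.03 (SD 0.0559, n = 2; limma adjusted p 0.0240). Its spots ran from -1.27 to -0.88, which is the closest agreement between arrays among genes beyond 2-fold in the mean. RPA1, the large subunit of the protein that coats single-stranded DNA, had a mean of -0.77 and lay lower on replicate 1, and RPA3, its small subunit, at -0.99 and 0.01. RFC3, of the clamp loader, lay at -0.79 and -0.67. On the other side were LIG4, the ligase of end joining, at 0.98 and 0.54, UBE2N, which builds chains in damage signalling, at 0.91 and 0.42, and BRCA1, of homologous recombination, at 0.69 and 0.30. The kinase ATM (0.43 and -0.29) and the ligase LIG3 (0.33 and -1.05) had opposite signs. The list median was -0.43, but over the 5 members with spots within 0.5 of each other on both arrays it was 0.49, or 0.27 with the arrays centred again on all probes with such spots.

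In the cell cycle list 1 of 10 passed. E2F5, a repressive E2F factor, lay at -1.05 and -0.89, although its spots on replicate 1 read -0.26 and -1.84. E2F4, another repressive member, lay at -0.60 and -0.08, and the activator E2F3 at 0.48 and 0.10. WEE1, which holds back mitotic entry, lay at 1.13 and 0.40, and CDK6, a kinase of early G1, at 1.09 and 0.17. CDC6, which loads the replicative helicase, lay at 0.86 and 0.12. CDK7 (-0.69 and -0.02) and its partner cyclin H, CCNH (1.18 and -0.14), lay apart on replicate 1 and together on replicate 2. The list median of 0.21 was 0.63 on replicate 1 and 0.02 on replicate 2.

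Of 10 genes of the transcription machinery GTF3C1 alone passed. GTF2F2, a subunit of TFIIF, lay at 0.88 and 0.34, while TAF12 of TFIID lay at 0.92 and -0.23 and TAF7, also of TFIID, at -0.34 and -0.21. ELOC, elongin C, lay at -0.16 and 0.62. The list median was 0.23.

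None of the 6 apoptosis genes passed. CASP9, the caspase started by the apoptosome, lay at -0.96 and -0.69, and the death ligand gene TNFSF10 at -0.92 and -0.41. CASP10 lay at -0.26 and -0.23. The BCL2 family genes BAD (0.59 and 0.11) and BID (0.70 and -0.19) had positive means. The list median was -0.22.

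The cadherin and junction list held 13 probes for 12 genes. Of these probes 3 passed on the negative side and 1, CD99L2, on the positive side, against 9.11% and 0.694% of all probes. The list is short and was chosen with earlier results of these data known, so the counts are a description only. CDH5 and DLG5 were 2 of the 3 on the negative side, and CDH3, the placental cadherin, was the other. Cadherins did not share a side. CDH8 (-1.32 and -0.23), CDH6 (-0.91 and -0.63) and the protocadherin PCDH1 (-1.10 and -0.41) were negative on both arrays without passing. CDH11, the cadherin of mesenchymal cells, lay at 0.53 and 0.41, and CDH2, N-cadherin, at 0.65 and -0.10. Connexin 43, GJA1, was on a pair of probes that lay at -0.20 and -0.02 and at 0.27 and -0.09. The list median was -0.33, but 0.28 over the 7 probes with spots within 0.5 on both arrays, or 0.05 with the arrays centred again on such probes.

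Of 16 matrix genes 1, HSPG2, passed. Positive on both arrays without passing were COL11A2, LAMA4, a laminin chain of vessel walls (1.12 and 0.41), NID1, which links laminin to collagen (0.86 and 0.59), COL11A1 (0.83 and 0.50), the protease MMP12 (0.97 and 0.31), the proteoglycan BGN (0.93 and 0.32) and COL6A3 (0.14 and 0.36). Negative on both were HYAL3 (-1.30 and -0.46), COL2A1, the main cartilage collagen (-0.83 and -0.89), the collagenase MMP13 (-0.78 and -0.65), MMP14 (-0.53 and -0.16), the integrin genes ITGA9 (-0.19 and -0.48) and ITGA7 (-0.32 and -0.10), and MMP15 (-0.08 and -0.07), besides HSPG2. The cartilage collagens COL2A1 and COL11A1 with COL11A2 therefore lay on opposite sides. The list median of -0.14 turned positive on replicate 2 alone (0.01), over the 9 members with spots within 0.5 on both arrays (0.64, or 0.42 centred again on such probes) and the 11 within 1 (0.63, or 0.56) and with the trend on spot differences removed (0.04).

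All 6 TGF-beta and BMP genes were positive on both arrays after centring, as were 119 of all 350 named probes, and none of the 6 passed. After GDF10 came SMAD7, an inhibitor of the receptors (0.85 and 0.65), SMAD4, the partner shared by the receptor-driven SMADs (0.99 and 0.26), SMAD6, an inhibitor of BMP signals (0.85 and 0.19), SMAD5, a carrier of BMP signals (0.34 and 0.25), and the procollagen protease BMP1 (0.22 and 0.10). The list median was 0.57, against 0.85 on replicate 1 and 0.25 on replicate 2, and 0.09 without centring, where SMAD5 (-0.19) and BMP1 (-0.32) turned negative. BMP1 also lay at -0.06 with the arrays centred on probes with spots within 0.5.

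Of 12 MAP kinase and immediate early genes MAPK13 alone passed. MAP2K6, a kinase that activates p38 kinases, lay at -0.85 and -0.64, on the same side as MAPK13. MAPK4 lay at -0.30 and -0.61, and its relative MAPK6 at 0.65 and 0.46. MAP2K4, upstream of JNK and p38, lay at 0.51 and 0.36, and the transcription factor ETS2 at 0.69 and 0.63. The immediate early genes FOSB (1.04 and 0.03), IER2 (-0.51 and -0.14) and DUSP5 (-0.97 and 0.19) did not lie together.

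Among 8 Notch, Hedgehog, Hippo and Wnt genes TEAD2 passed. The Notch ligand JAG1 lay at -0.67 and -0.98, and the Notch-modifying MFNG at -0.71 and -0.58, while the related LFNG lay at 0.59 and -0.47. The Hedgehog receptors SMO (0.54 and -0.21) and PTCH1 (0.72 and -0.37) each had opposite signs, with like values on either array.

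None of the 8 nuclear receptor and steroid probes passed. The receptor coactivator RNA SRA1 lay at 0.95 and 0.59, the estrogen receptor gene ESR2 at 0.89 and 0.44, and CYP51A1 of sterol synthesis at 0.80 and 0.22. CYP11B1, a steroid hydroxylase of the adrenal gland, lay at -1.71 on replicate 1 and 0.03 on replicate 2. ESR1 was on a pair of probes that went apart, at -1.23 and -0.38 on probe 640 and at 1.12 and -0.61 on probe 1139. These probes give no single value for ESR1.

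Of the 6 ubiquitin probes 1 passed, a probe of the conjugating enzyme gene UBE2R2 (-1.45 and -0.39). The other UBE2R2 probe lay on the same side at -0.52 and -0.57 without passing, so its probes differed on replicate 1. UBE2A, which marks the sliding clamp at stalled forks, lay at -1.23 and 0.07.

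Among 14 zinc finger genes ZNF135 passed (-1.52 and -0.34). ZNF76, an activator of RNA polymerase III genes, lay at -0.77 and -0.78 and ZNF347 at 0.80 and 0.72, both with arrays within 0.09 of each other. In the homeobox and forkhead list FOXD1 and HOXB13 passed among 11 genes. FOXJ1, the regulator of motile cilia, lay at -0.60 and -0.56, HOXB9 at 0.85 and 0.58, and FOXO3 at 0.64 and -0.83. In the list of 12 cytokines, growth factors and receptors NTRK3, the neurotrophin-3 receptor, passed (-0.84 and -1.11). The cytokine IL15 lay at -0.48 and -1.08, the osteoclast ligand TNFSF11 at 0.90 and 0.45, and KIT, the receptor of stem cell factor, at 0.08 and -0.11.

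CAPN1 was the only one of 11 protease genes to pass. The cathepsin CTSF lay at -1.39 and -0.35, CTSO at 0.09 and -0.51 and CTSZ at -0.12 and -0.22. None of the 3 chaperone genes and none of the 5 genes of the actin and membrane skeleton passed. The heat shock protein gene HSP90AA1 lay at -0.27 and 0.84, the mitochondrial chaperone HSPA9 at -0.31 and -0.68, and the cochaperone DNAJB1 at 0.82 and 0.61. The adducin gene ADD3 lay at -0.38 and -0.30 and the kinase LIMK1 at 0.08 and -0.15.

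**Figure D4:**
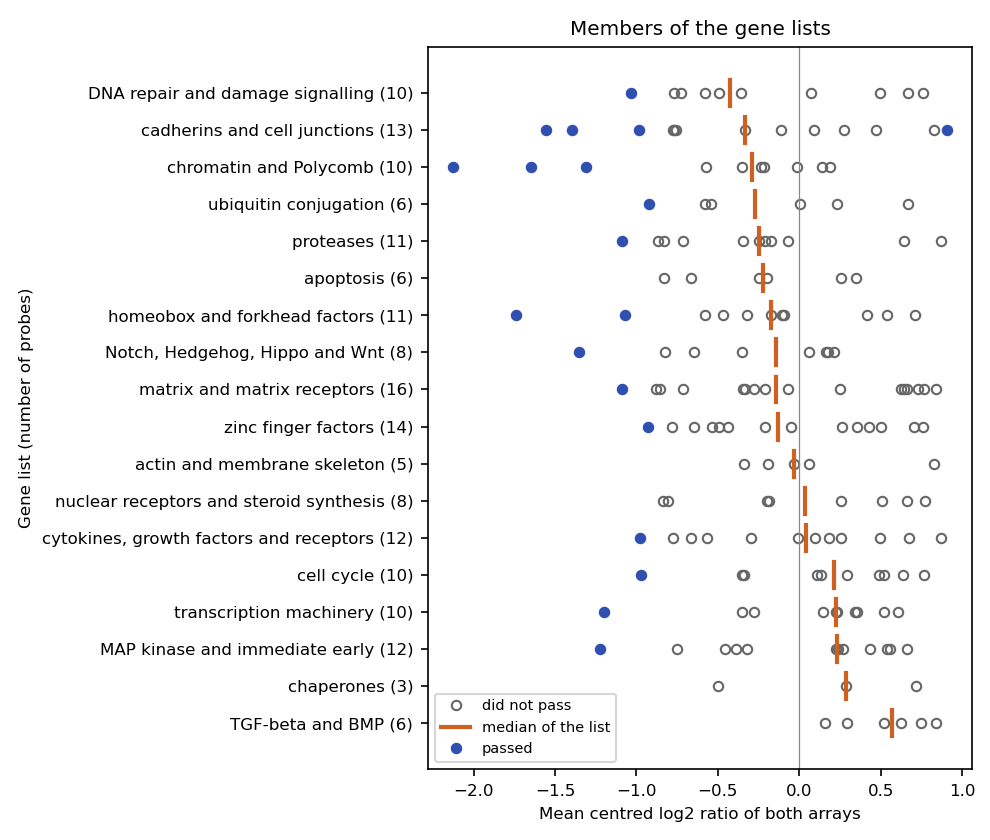
Mean centred log2 ratio of both arrays (x axis) for each member of the 18 gene lists (y axis, number of probes in brackets), with filled points for members that passed and a bar for the list median. Medians run from -0.43 (DNA repair) to 0.57 (TGF-beta and BMP), the list with no member below 0, and the filled points are negative except CD99L2.

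Of the named genes that passed outside every list, TERC, MTF1, MLF2, CNR1 and ATXN1 had the lowest means after EIPR1, KISS1, XIST, NME4, CD86, PRKCH and RIOX2. MTF1, which switches on metallothionein genes, lay at -1.33 and -0.82 with spots within 0.241 of each other. MLF2 lay at -1.50 and -0.63, and the cannabinoid receptor gene CNR1 at -1.29 and -0.73. MEF2C, a factor of muscle and nerve cells, lay at -1.24 and -0.60, and MTDH, metadherin, at -1.18 and -0.68. The carbonic anhydrase gene CA3 lay at -1.35 and -0.54, and PPIL6 of the cyclophilin family at -1.26 and -0.67. In each of these genes both arrays lay on the negative side.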

How the data were processed

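Per the labels and the values, the deposited table gives 1 log2 ratio per spot, with 2304 spots and 0 missing values on each of the 2 arrays. The size of each ratio was a whole number of hundredths before the logarithm was taken (100% of spots, tolerance 0.001). Per the labels, a normalization factor of 1.169 belongs to replicate 1, and what it was applied to is not given in the sources used here, nor are the scanner, dyes, background correction or spot filter. Spots 2n-1 and 2n, which carry the same annotation, were averaged (their values correlated at r 0.819 and 0.774), and each array was centred on its median probe. The other 2 columns of the table, the arrays of mixture 1, were not used. Symbols came from GEO's platform annotation, and hamster names from RefSeq's table for CriGri-PICRH.

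Means were tested against 0 with limma 3.58.1 in R 4.3.3 (lmFit, eBayes), with Benjamini-Hochberg adjustment over 1152 probes. The code was tested on simulated data. RT210B and the mixture are each on both arrays, and no spread between cultures of either was estimated. The labels do not say whether replicates are separate cultures, so a p-value covers no more than array-to-array spread, possibly technical. Named genes are the 18 most negative and 8 most positive with 1 sign on both arrays, the passing or largest members of each list, and the 3 nearest the threshold on either side. Further genes are given as examples of a group and were chosen after their values were seen. Members and lists were chosen with earlier results of these data known. Alternatives were other centrings, scalings, models of spread and spot filters.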

Additional observations from a re-analysis of the deposited data

How the results depend on the processing

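The count of 113 passing probes was not stable. It was 385 without centring (all negative, 105 of them among the 113), 12 with both arrays scaled to 1 spread (all among the 113), 124 with robust moderation and 91 with centring on named probes. By the ordinary t-test with each probe's own spread, which has 1 degree of freedom, it was 0 (90 probes at an unadjusted p under 0.05). In limma it was 0 with duplicate spots as replicates (369) and 0 with the trend on the spot difference removed (108). Over the 719 probes with spots within 0.5 of each other, 13 of the 39 negative named probes among them, it was 0 with the arrays centred again on those probes (141). In alternatives chosen after seeing the data it was 38 over the 719 with the centring kept, all among the 113, and over the 1033 probes with spots within 1 it was 91 centred again and 65 with the centring kept. The prior degrees of freedom, which set how far limma pools the spread, were infinite in the main fit and over the 719 with the centring kept. They were 6.17 with scaling, 4.89 over the 719 centred again, 4.39 with the trend removed and 3.43 with duplicate spots as replicates. In these settings the count changed together with the pooling, and their shares were not separated. The 22 probes at least 2-fold on both arrays became 134 without centring and 13 with the trend removed, 8 with spots within 0.5 and the centring kept, 153 at 1.5-fold and 1 at 3-fold, and 43 to 222 on a single array. The mean of AQP5 was 0.046 without replicate 1 and -1.88 without replicate 2, and no other passing named gene changed sign in any alternative. The causes were not tested. A single array leaves no residual degrees of freedom, so no test was run without a replicate. No paired analysis was possible because both arrays belong to 1 group.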

Other observations

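The genes in this part were grouped after their values were seen, and the groups carry no test of their own. TERC, the RNA template of telomerase, lay at -1.91 on replicate 1 and -0.25 on replicate 2 and passed in limma (adjusted p 0.0167), with spots of 0.10 and -0.60 on replicate 2. TERT, the protein subunit of telomerase, lay at -0.33 and -0.57 and did not pass. Genes of mitosis and chromosome structure lay on both sides. TACC3, a spindle protein, lay at 0.89 and 0.52, on the side of CDC14A, while ITGB3BP, a centromere protein, lay at -0.57 and -0.55, the centrosome kinase NEK2 at -0.24 and -0.43 and NSMCE3, of the SMC5 and SMC6 complex, at -1.18 and -0.33. Of 9 such genes CDC14A alone passed, and the median was 0.02.

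Among genes of replication CDC45, of the replicative helicase, passed at -0.70 and -1.23, lower on replicate 2, and CDC7, the kinase that starts origins, lay at 0.19 and 0.07. With RPA1, RPA3, RFC3 and CDC6, given above, this group held 6 genes. CDC45 alone of them passed, and the group median was -0.61. The water channel genes AQP5 and AQP7 both passed through replicate 1 (-1.88 and -1.66), while AQP1 lay at 0.07 and 0.51. The subunits ATP6V1A (0.61 and 0.64) and ATP6V1C1 (0.73 and 0.52) of the vacuolar proton pump had like values on both arrays. The core binding factor genes differed, with CBFB positive and RUNX1 at -0.60 and -0.34. Of the ID genes, whose proteins block helix-loop-helix factors, ID4 lay at 0.85 and 0.53 and ID2 at -0.71 and -0.29.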
